A study of Mus musculus with 2 samples.

Results

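This report describes 10 genes that act outside the cell and at the cell surface in bone morphogenetic protein (BMP) signalling, in ureters of newborn mice with and without Rbpj in the Tbx18 lineage. They are the ligands Bmp2, Bmp4, Bmp5 and Bmp7, the receptors Bmpr1a, Bmpr1b and Bmpr2, and the inhibitors Grem1, Nog and Bambi. They were taken by the gene name printed in the scanner files, which gave 12 probes of 39429, or 10 genes of 30011, each probe with 4 spots on an array. The measured quantity was the log2 ratio of the Rbpj-cKO RNA over the control RNA on each of 2 two-colour arrays. A ratio above 0 means more signal in the Rbpj-cKO RNA.

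BMP ligands are secreted dimers that bring type I and type II receptors together at the membrane, after which SMAD proteins carry the signal to the nucleus. Noggin and gremlin bind the ligand before it reaches a receptor, and Bambi is a membrane protein that resembles a type I receptor without its kinase. In the developing urinary tract Bmp4 is known from the mesenchyme around the ureteric epithelium, where it takes part in the formation of the ureter wall. The RBPJ protein binds DNA and mediates the transcriptional response to Notch receptors.

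All ureters came from NMRI mice at postnatal day 4. The Rbpj-cKO genotype was Tbx18(cre/+);Rbpj(fx/fx), and that of the controls Tbx18(+/+);Rbpj(fx/n.d.), in which the second Rbpj allele was not determined (n.d.). The groups therefore differed in the cre-bearing Tbx18 allele as well as in Rbpj, both held a floxed Rbpj allele, and recombination is limited to cells that express Tbx18 or descend from such cells. Array 1 held a pair labelled female with the Rbpj-cKO RNA in red, and array 2 a pair labelled male with the dyes exchanged. Sex, dye and replicate thus changed together and cannot be told apart, and how many animals gave each RNA was not given in the sources used here. The p-values and fold intervals below rest on these 2 pairs alone. Their variance combines the spread of a gene between the pairs with a prior from all genes. They therefore do not follow from the printed SD of a gene alone. The number of arrays (n = 2) limits the precision. In whole ureters, fewer cells of a type and less RNA per cell cannot be told apart.

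The labels were checked first. Rbpj had ratios of -0.92 and -1.10, and its second probe -0.68 and -1.003. The place of these probes relative to the floxed segment was not determined, so they check the genotype only in part. The smooth muscle markers of the ureter wall and the uroplakins of its epithelium were well above background in all 4 RNAs. In the Rbpj-cKO RNA of array 1, labelled female, the Y-linked Ddx3y and Eif2s3y stood 4.23 and 4.26 above the control, against the label. Xist, which is transcribed from the inactive X chromosome, had a log2 intensity of 12.96 in that RNA and 12.82 in its control, against 6.41 and 6.43 in the male pair. The RNA thus held both Xist and Y-linked signal. In the control RNA of array 2, hepatocyte markers stood high, which gave the list a median ratio of -2.70 there against 0.60 on array 1. The ratio of each measured member is given for each array for this reason.

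The sequences that the probes read are shown first for the genes with 2 probes, Bmpr1b and Bmp4, because they differ in how far a value can be trusted. Each line gives the first 30 bases of a 60-base probe, 5′ to 3′, as deposited in the scanner files, with no part in capitals. Positions are those of the files on mm9, all on the minus strand. The exon structure on that build was not used here.

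Bmpr1b, brighter probe, chr3:141500724-141500753: atttatggaagcatgtacattgtgaactcc
Bmpr1b, dimmer probe, chr3:141503404-141503433: atcatggctttctgaggaggagaaactgtt
Bmp4, bright probe, chr14:47003421-47003450: caaccacctacacataccacacaaactgct
Bmp4, probe not well above background, chr14:47003228-47003257: gacaaatatatttataactacatattaaaa

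Both Bmpr1b probes were well above background in all 4 RNAs, and they start at bases 4695 and 2015 of the same transcript. The Bmp4 probes start at bases 1738 and 1931, and the second has 9 G or C among its 60 bases, or 15%, against 23 in the first. No spot of that second probe was well above background in any RNA, so Bmp4 was read from the bright probe alone. The other members had 1 probe each, with between 35% and 55% G or C.

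Of the 10 genes, 9 were measured well above background, and 8 of these 9 had a ratio above 0 on both arrays. The exception among the 9 was Bambi, which was below 0 on both. Across all 21143 genes tested, 31.7% were above 0 on both arrays, 29.8% below 0 on both and 38.5% of opposite sign, as were 0 members. With median centring in place of loess, 4 of the 9 were above 0 on both arrays and 0 below, beside 24.2% and 31.9% of all genes. The median of the 9 mean ratios was 0.14, against 0.00 over all genes, so the typical member stood about 1.1-fold above control. By limma, an empirical Bayes linear model fitted over all genes, 0 members passed the Benjamini-Hochberg threshold of 0.05, where 0% of all genes were called higher and 0.00473% lower. At an unadjusted p under 0.05, 3 members were higher (Bmpr1b, Bmp2 and Bmp4) and 0 lower, beside 6.98% of all genes higher and 7.02% lower. At least 1.5-fold higher on both arrays was 1 member, Bmpr1b, as were 0.402% of all genes. It was only just past this fold on array 1. Its ratio there fell below the fold with scaling between arrays (0.56), median centring (0.54) and the mean over its probes (0.51). At least 1.5-fold lower on both were 0 members and 0.795% of all genes.

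**Figure D1:**
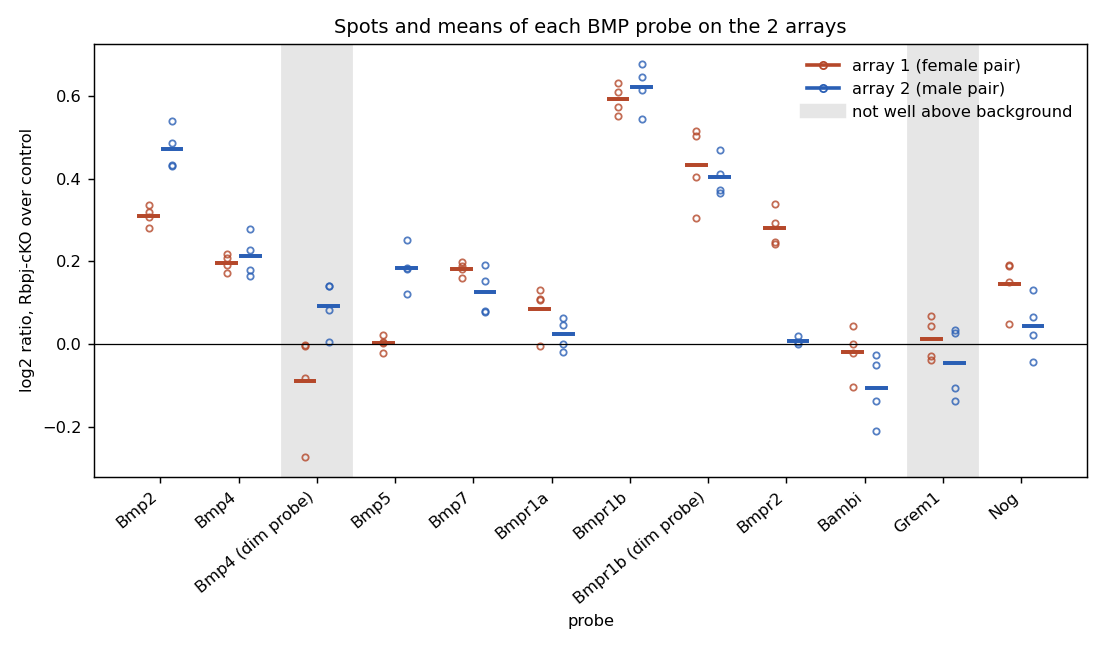
Log2 ratio of Rbpj-cKO over control (vertical axis) for each of the 12 probes (horizontal axis). Open circles are spots, bars are the mean of the spots on array 1 (red) and array 2 (blue), and grey bands mark probes not well above background. The means of both Bmpr1b probes lie above 0.40 on both arrays, whereas that of Bmpr2 lies at 0.28 on array 1 and 0.01 on array 2.

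Among the ligands, Bmp2 showed the largest ratio. Its normalized log2 intensity was 12.73 in the Rbpj-cKO RNA and 12.42 in the control of array 1, and 13.02 and 12.54 on array 2. Both Rbpj-cKO RNAs thus lay above both controls, without overlap. The ratios were 0.31 and 0.47, with a mean of 0.39 ± 0.11 (SD, n = 2), or 1.31-fold with a 95% interval of 1.13 to 1.53. In limma the adjusted p was 0.211, and 447 of the 21143 genes had a higher mean. The spots of the probe ranged from 0.28 to 0.34 on array 1 and from 0.43 to 0.54 on array 2, so the arrays differed by more than their spots.

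Bmp4, the ligand of the ureteric mesenchyme, gave nearly the same ratio in both pairs. Its log2 intensity was 16.13 against 15.93 in the control on array 1 and 16.33 against 16.12 on array 2. The groups did not overlap, but the lower Rbpj-cKO RNA and the higher control lay close together. The ratios of 0.20 and 0.21 had a mean of 0.20 ± 0.01 (SD, n = 2), or 1.15-fold with a 95% interval of 1.01 to 1.32. The adjusted p in limma was 0.342. With median centring in place of loess, the ratio was 0.58 on array 1 and -0.25 on array 2, so its direction on array 2 depended on the intensity-dependent dye correction. The probe that was not well above background gave -0.09 and 0.09.

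Bmp7, a ligand also made in the epithelium of the ureteric bud, had log2 intensities of 11.85 and 11.67 (control) on array 1 and 12.01 and 11.88 (control) on array 2. The groups overlapped, because the control of array 2 exceeded the Rbpj-cKO RNA of array 1. The ratios within the pairs were 0.18 and 0.13, with a mean of 0.15 ± 0.04 (SD, n = 2), an interval of 0.97-fold to 1.28-fold and an adjusted limma p of 0.455. Bmp5 stood at 11.36 in both RNAs of array 1, and at 11.61 against 11.42 in the control on array 2. Its ratios of 0.00 and 0.18 averaged 0.09 ± 0.13 (SD, n = 2), with an adjusted limma p of 0.705, so the ratio of Bmp5 lay away from 0 on array 2 alone. With median centring the ratio of Bmp5 on array 1 was -0.05.

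The receptors differed from one another. Bmpr1b, a type I receptor that binds the ligand and phosphorylates SMAD proteins, had a log2 intensity of 10.48 against 9.88 in the control on array 1 and 10.38 against 9.76 on array 2. The 2 Rbpj-cKO RNAs lay together and well above both controls. The ratios of 0.59 and 0.62 gave a mean of 0.61 ± 0.02 (SD, n = 2), or 1.52-fold with a 95% interval of 1.33 to 1.74. The unadjusted limma p was 0.000769 and the adjusted p 0.129, with 156 genes at a higher mean. The dimmer probe gave 0.43 and 0.40, a mean of 0.42, or 1.34-fold. Its spots ranged from 0.30 to 0.51 on array 1 and from 0.36 to 0.47 on array 2, below the lowest spot of the brighter probe (0.54), so the probes had the same direction and different sizes.

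Bmpr1a, the other type I receptor among the members, differed little. Its log2 intensity was 14.34 against 14.25 in the control on array 1 and 14.32 against 14.30 on array 2. The ratios of 0.09 and 0.02 had a mean of 0.05 ± 0.04 (SD, n = 2), the interval ran from 0.91-fold to 1.19-fold, and the adjusted limma p was 0.819. Its spots crossed 0 on both arrays. Bmpr2, the type II receptor that activates type I receptors, differed between the pairs. It stood at 13.55 against 13.27 in the control on array 1, a ratio of 0.28, and at 13.43 against 13.42 on array 2, a ratio of 0.01. The mean was 0.14 ± 0.19 (SD, n = 2) with an adjusted limma p of 0.599. With median centring the ratios on array 2 were -0.13 for Bmpr1a and -0.06 for Bmpr2, and the mean ratio of each was still above 0. The difference between Bmpr1b and Bmpr1a was not tested, since their probes differ in brightness and sequence.

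**Figure D2:**
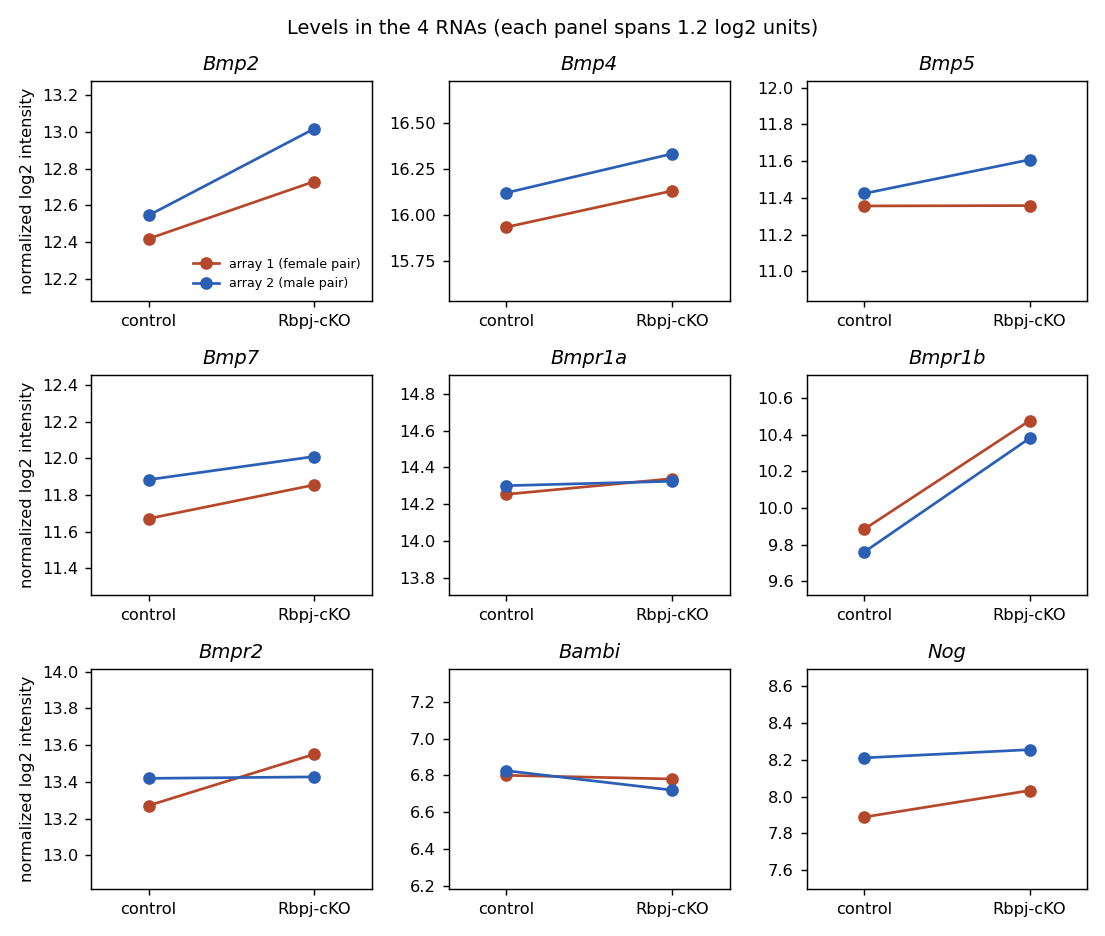
Normalized log2 intensity (vertical axis, 1.2 units in every panel) in the control and the Rbpj-cKO RNA (horizontal axis) for the 9 members measured, with array 1 in red and array 2 in blue. The Bmpr1b lines are the steepest and run alike, from 9.88 to 10.48 and from 9.76 to 10.38, while those of Bmpr1a lie almost flat.

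Over the 9 members, both Rbpj-cKO RNAs lay above both controls for 5 (Bmp2, Bmp4, Bmpr1a, Bmpr1b and Bmpr2) and below both for Bambi. The same held for 22.3% (above) and 20.8% (below) of all genes. The median difference between the 2 arrays in a gene's ratio was 0.09 for the members and 0.12 for all genes.

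The ratios of the inhibitors were small. Nog, the secreted antagonist noggin, had log2 intensities of 8.03 against 7.89 in the control on array 1 and 8.26 against 8.21 on array 2. The groups overlapped. The ratios of 0.14 and 0.04 had a mean of 0.09 ± 0.07 (SD, n = 2), with an interval of 0.93-fold to 1.23-fold and an adjusted limma p of 0.668. Over the settings tried, the mean of the dim Nog ranged from 0.09 to 0.19, the highest being that of the authors' deposited table. Bambi had 6.78 against 6.80 in the control on array 1 and 6.72 against 6.83 on array 2, close to background. Its ratios of -0.02 and -0.11 had a mean of -0.06 ± 0.06 (SD, n = 2), its interval 0.83-fold to 1.10-fold and its adjusted limma p 0.793. Over the settings tried, this mean ranged from -0.26 with the scanner's log ratio to 0.00 in the authors' deposited table. There Bambi stood at a fold of exactly 1, as did 31.8% of all values for array 1 and 31.6% for array 2. Whether such a value is a measured ratio was not tested. Grem1, which encodes gremlin, was not well above background in any of the 4 RNAs, so it entered no test and no fold is given.

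Promoter windows were searched for the core motif bound by RBPJ, TGGGAA on either strand, and for the longer GTGGGAA, which contains it. RefSeq windows on GRCm38.p6 were matched for 6 of the 10 genes, with 8 windows of 250 bases before a transcription start. The core occurred in 3 of these 8 windows, those of Bmpr2, Bmp5 and Bmpr1a, and in 21.6% of all 32851 windows. The longer motif occurred in the Bmpr2 window alone among the 8, and in 5.42% of all windows. They are shown because Rbpj is the deleted factor, with the match in capitals (TTCCCA is the core on the opposite strand).

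Bmpr2, chr1:59764029-59764278, plus strand: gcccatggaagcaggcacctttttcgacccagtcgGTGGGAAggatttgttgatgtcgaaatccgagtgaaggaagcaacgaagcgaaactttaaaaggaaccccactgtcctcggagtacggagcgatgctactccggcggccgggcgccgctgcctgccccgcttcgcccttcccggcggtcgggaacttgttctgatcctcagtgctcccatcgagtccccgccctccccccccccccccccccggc
Bmp5, chr9:75775115-75775364, plus strand: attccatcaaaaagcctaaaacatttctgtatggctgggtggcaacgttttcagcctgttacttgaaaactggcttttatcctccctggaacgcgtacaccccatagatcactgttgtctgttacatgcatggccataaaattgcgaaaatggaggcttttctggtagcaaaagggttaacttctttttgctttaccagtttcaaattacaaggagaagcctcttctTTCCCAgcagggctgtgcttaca
Bmpr1a, chr14:34502547-34502796, minus strand: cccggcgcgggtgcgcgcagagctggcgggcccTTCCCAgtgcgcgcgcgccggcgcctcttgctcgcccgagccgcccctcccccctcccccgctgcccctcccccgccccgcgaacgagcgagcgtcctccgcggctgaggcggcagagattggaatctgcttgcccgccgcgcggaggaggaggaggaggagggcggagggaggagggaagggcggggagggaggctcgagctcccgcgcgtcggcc

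The matches ended 208, 17 and 211 bases before the start in Bmpr2, Bmp5 and Bmpr1a, whose mean ratios were 0.14, 0.09 and 0.05. The 3 windows of Bmpr1b and the single windows of Bmp4 and Grem1 did not hold these letters. No binding was measured, and a match is only a description of the sequence.

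The rest of the pathway was described with lists of 57 other genes, of which 51 were measured. Of these, 28 were above 0 on both arrays and 13 below, beside 31.7% and 29.8% of all genes, with a median of 0.09. The limma fit called 0 of them after adjustment, with a smallest adjusted p of 0.102, that of Hamp. At an unadjusted p under 0.05 there were 9 higher and 5 lower, beside 6.98% and 7.02% of all genes. Among the lower, Gdf7 and Hamp were well above background on both arrays only in the control RNAs, so their p-values rest in part on values near background. The same shares of all genes stand beside the counts of each list below.

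Of 11 other ligands, 9 were measured, 6 above 0 on both arrays and 2 below. At an unadjusted p under 0.05 in limma were 4 higher and 2 lower, Gdf5 and Gdf7, of which Gdf7 was kept only through the control RNAs. Gdf10, a ligand related to Bmp3, had ratios of 0.33 and 0.28 (mean 0.31 ± 0.03, SD, n = 2, adjusted p = 0.242). Bmp3 itself had 0.36 and 0.17, Bmp6 0.34 and 0.17, and the dim Gdf6 0.28 and 0.17, with adjusted p between 0.318 and 0.336. The opposite direction was seen for Gdf5, a ligand of joint and cartilage development, with -2.51 and -1.03 (mean -1.77 ± 1.05, SD, n = 2, adjusted p = 0.208). Its second probe gave -1.15 and -0.33, so the size was uncertain while the direction was shared. Gdf7 had -0.91 and -0.28. In the Rbpj-cKO RNA, 25% of its spots on array 1 and 50% on array 2 were well above background. Over the means of both arrays it was at least 1.5-fold lower, measured against the dimmest probe level still well above background on each array, and its own ratio on array 2 was smaller than that. Beside both genes, the adipocyte markers had median ratios of -2.74 and -1.09, and their part in these values was not tested.

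Of 9 other receptors and co-receptors, 8 were measured, 3 above 0 on both arrays and 2 below, and 0 reached an unadjusted limma p under 0.05. The type II receptor Acvr2a had 0.06 and 0.08, although its second probe gave 0.05 and -0.08, and the RGM receptor Neo1 had 0.09 and 0.12. The co-receptors Rgma and Rgmb, which bind BMP ligands at the membrane, were below 0 on both arrays by unlike amounts, with -0.50 and -0.07 for Rgma and -0.08 and -0.47 for Rgmb. A second Rgmb probe gave -0.23 and -0.06, so its probes differed in which array had the larger ratio.

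Of 20 other extracellular inhibitors and modulators, 17 were measured, 8 above 0 on both arrays and 5 below. Kcp, a secreted protein that enhances BMP signalling in kidney, had 0.45 and 0.48 (mean 0.46 ± 0.02, adjusted p = 0.159 in limma). The follistatin relative Fstl3 had 0.41 and 0.26. Below the control were the BMP antagonists Chrdl2, with -1.01 and -0.74 (mean -0.88 ± 0.19, SD, n = 2, adjusted p = 0.115 in limma), and Nbl1, with -0.40 and -0.45 (mean -0.43 ± 0.03, adjusted p = 0.172 in limma). Ratios of this mixed list of inhibitors and modulators thus lay on both sides of 0.

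Inside the cell, ratios were small. All 8 SMAD and SMURF genes were measured, with means between -0.13 and 0.12, and 0 reached an unadjusted limma p under 0.05. The inhibitory Smad6 had 0.16 and 0.08 and Smad7 0.09 and 0.13, both of which are also induced by BMP signals. Smad9, a receptor-activated SMAD, had -0.17 and -0.08. The ubiquitin ligase Smurf2 had 0.09 on both arrays, but its other 2 probes had 0.05 and 0.01, and 0.09 and -0.20.

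Of 9 target genes, 6 were above 0 on both arrays and 3 below, with a median of 0.21. Id4, which encodes an inhibitor of basic helix-loop-helix factors, had 0.42 and 0.53 (mean 0.47 ± 0.08, SD, n = 2, adjusted p = 0.166 in limma). Its log2 intensity was 15.51 and 15.72 in the Rbpj-cKO RNAs and 15.10 and 15.20 in the controls, without overlap. The homeobox gene Msx1 had 0.44 and 0.29 (mean 0.36 ± 0.10, adjusted p = 0.224 in limma). Also above 0 on both arrays were Msx2 (0.38 and 0.10), Id2 (0.36 and 0.08), Atoh8 (0.30 and 0.12) and Id1 (0.07 and 0.17). Id3 (-0.10 and -0.01) and the dim Dlx5 (-0.03 and -0.04) lay just below 0 on both. Msx2, Id2, Atoh8, Id1, Id3 and Dlx5 did not reach an unadjusted limma p under 0.05. Hamp, which encodes the iron hormone hepcidin of liver, was dim and was measured in both RNAs on array 2 alone, with a ratio of -0.77. On array 1 only 25% of its spots were well above background in the Rbpj-cKO RNA, so its adjusted p of 0.102 in limma rests in part on a value near background. Beside it are the hepatocyte markers, whose median stood at 0.60 on array 1 but at -2.70 on array 2.

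**Figure D3:**
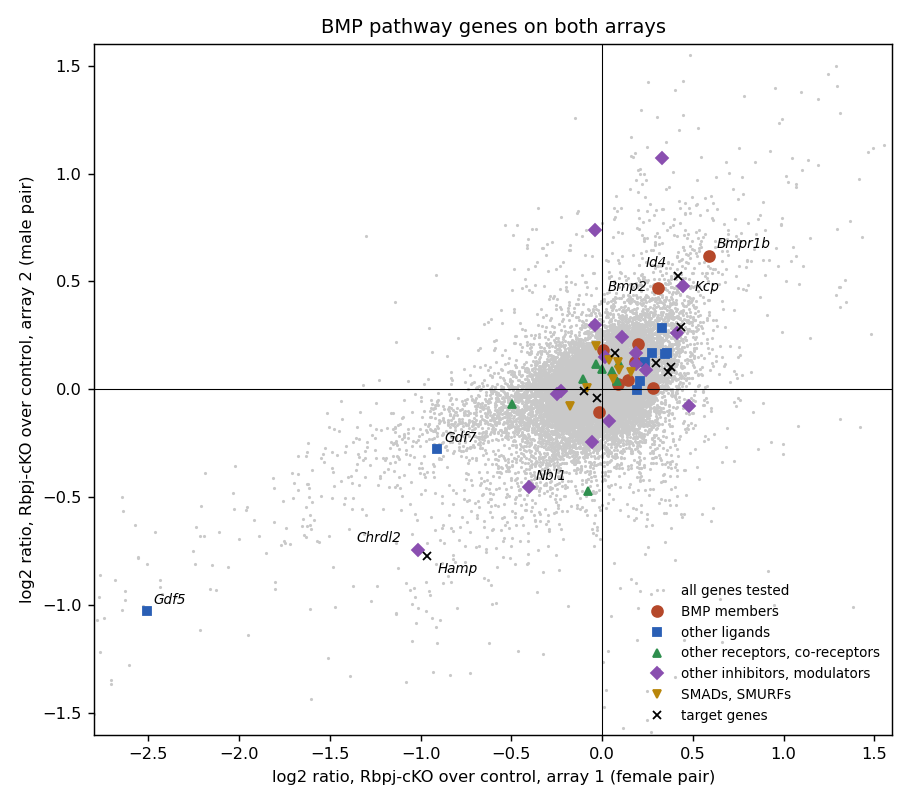
Log2 ratio of Rbpj-cKO over control on array 1 (horizontal axis) against array 2 (vertical axis) for the 9 members (red circles), the 51 other pathway genes by list and all 21143 genes tested (grey), of which 68 lie outside the axes. Most members lie in a cluster just above 0 on both axes, with Bmpr1b at 0.59 and 0.62, while Gdf5 lies far to the lower left at -2.51 and -1.03.

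Markers of cell types in and around the ureter were measured in the same RNAs. Fibroblast markers were above 0 on both arrays for 5 of 8 genes, with medians of 0.18 and 0.17. Their summed signal, on the log2 scale, was 19.19 in both Rbpj-cKO RNAs and 18.90 to 18.98 in the controls. The highest of this list were Pdgfra, with 0.45 and 0.49, and Lum, with 0.53 and 0.34. By contrast, Dcn, Col1a1 and Aldh1a2 had opposite directions on the 2 arrays, and Pi16 and Dpt had means of 0.04 and 0.03. Urothelium markers were above 0 on both arrays for 6 of 10, with medians of 0.40 and 0.08 and summed signals of 19.34 to 19.44 in Rbpj-cKO and 19.01 to 19.30 in control RNAs.

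Kidney epithelium markers were above 0 on both for 4 of 7, with medians of 0.97 and 0.24. Their summed signal was 14.62 to 14.64 against 14.87 to 14.94 in the controls. Most of that sum came from Aqp1 alone, at 14.50 and 14.53 against 14.81 and 14.88 in the controls, so it does not describe the other markers. Nphs1, Slc12a1 and Slc12a3 of that list were not well above background. Mesothelium markers had medians of 0.65 and 0.12, with 4 of 6 above 0 on both arrays. Their summed signal was 16.91 against 16.73 in the control on array 1, and 16.84 against 16.88 on array 2. Krt19 alone made up most of that sum, at 16.49 and 16.47 against 16.39 and 16.55 in the controls. The sum therefore does not describe the other mesothelium markers. The medians of these lists lay on the same side of 0 as those of most BMP members, and their part in the members' ratios was not tested.

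Smooth muscle markers were below 0 on both arrays for 7 of 10 genes, with medians of -0.17 and -0.35. Their summed signal was 19.46 against 19.49 in the control on array 1, and 19.31 against 19.68 on array 2. Acta2 (0.20 and -0.36), Tagln (0.20 and -0.34) and Myocd (0.03 and -0.27) had opposite directions on the 2 arrays. Adipocyte markers were below 0 on both for 10 of 10, with summed signals of 17.10 to 17.23 against 18.19 to 19.58. Hepatocyte markers were measured for 9 of 10 genes, Fga not being well above background, and 0 of 9 had the same direction on both arrays, with summed signals of 15.54 to 15.79 against 15.47 to 16.62. Endothelium markers were below 0 on both for 6 of 8 (medians -0.34 and -0.13), skeletal muscle markers for 4 of 6 (-0.23 and -0.24) and erythroid markers for 6 of 6 (-0.26 and -0.23).

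**Figure D4:**
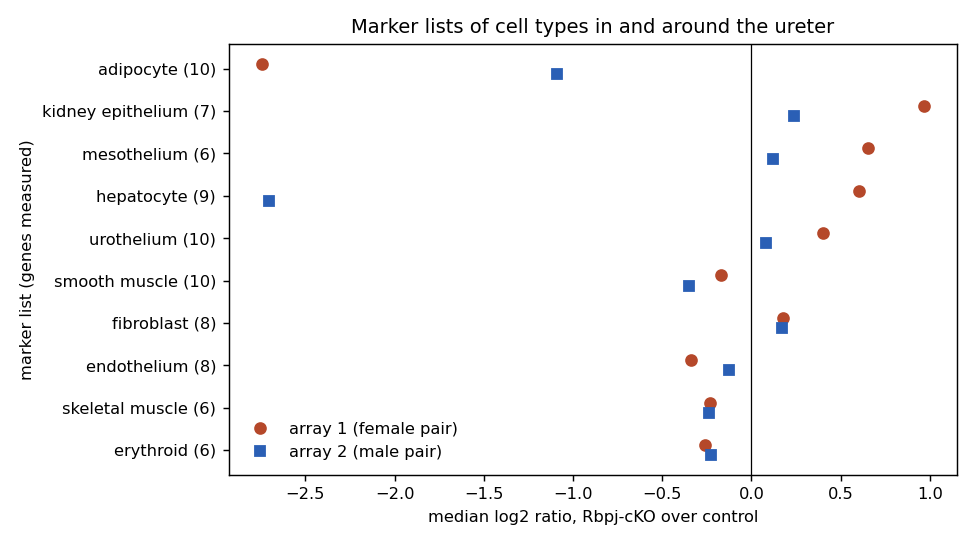
Median log2 ratio of Rbpj-cKO over control (horizontal axis) of each marker list (vertical axis, with the number of genes measured) on array 1 (red circles) and array 2 (blue squares). The fibroblast medians of 0.18 and 0.17 nearly coincide, while the adipocyte medians lie at -2.74 and -1.09 and the hepatocyte medians on opposite sides of 0.

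Across 10 processing settings, the mean ratios of 8 members stayed above 0 in each setting. Bmpr1b ranged from 0.51 to 0.66 and Bmp2 from 0.36 to 0.42. Bmp2, Bmp7, Bmpr1b and Nog were above 0 on both arrays in all 10 settings, Bmp4 and Bmp5 in 9, and Bmpr1a and Bmpr2 in 8. The smallest adjusted limma p of any member was 0.0693, for Bmpr1b with trend and robust settings, and its largest was 0.579, with median centring.

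**Figure D5:**
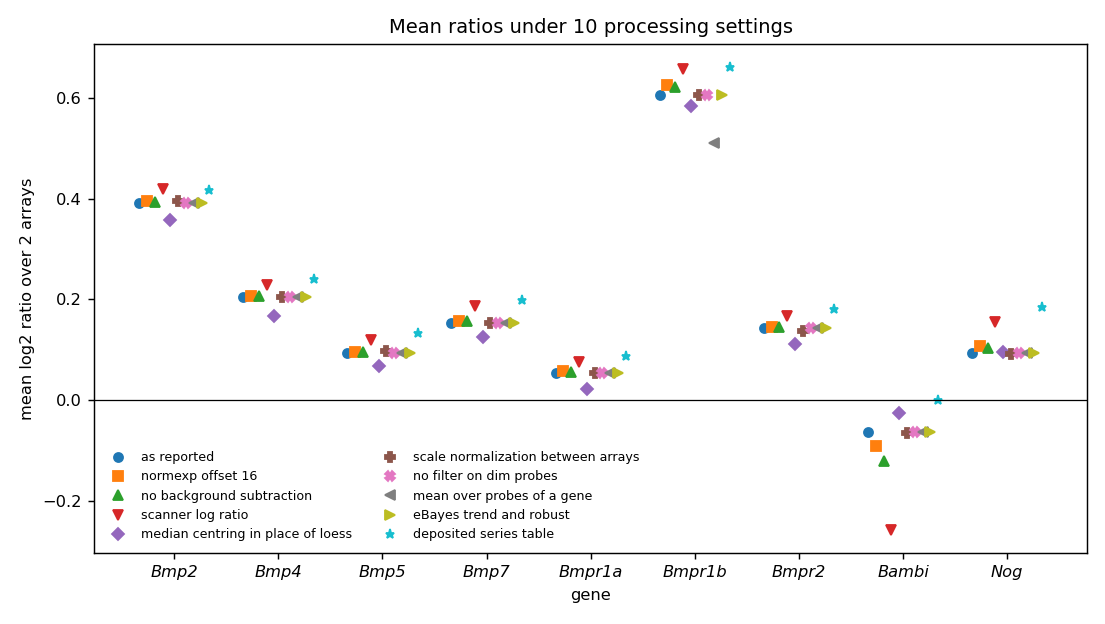
Mean log2 ratio over the 2 arrays (vertical axis) of each of the 9 members (horizontal axis) under 10 processing settings, one symbol each. Bmpr1b and Bmp2 stand above the other members under every setting shown, and Bambi lies between -0.26 and 0.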

How the data were processed

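RNA of postnatal day 4 mouse ureters was measured on 2 two-colour Agilent arrays. Per the file headers, spot intensities were deposited as extracted with Agilent Feature Extraction 10.7.3.1 (also in the submitters' processing notes), on 1 slide scanned on 1 day. The deposited scanner files also give a log10 ratio, red divided by green, which lay within 0.02 of the quotient of the processed signals for 93.5% of spots. The authors' deposited table holds a score of unstated making. No value fell between -1 and 1, so it was taken as a signed fold. Both columns had a median of 1, and their centring was not given in the sources used here.

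Mean intensities were corrected with normexp (offset 50) and normalized by loess, with control spots at weight 0 and flagged spots left out (3.34% and 3.12%). The dye labels set the direction (Rbpj-cKO over control), and spots were averaged. A probe was kept if, in at least 1 genotype, over 50% of its spots on each of the 2 arrays were called well above background by the scanner software (28176 probes), and the brightest probe stood for a gene (21143 genes). No spot was saturated. Levels came from A-quantile normalization. Limma 3.58.1 in R 4.3.3 tested ratios against 0, with 1 residual degree of freedom per gene and 4.35 with the prior, over all genes. The fold intervals came from the same fit. RefSeq symbols (GRCm38.p6) replaced 1359 of 28328 matched probe names. On simulated arrays the pipeline called 43.3% of genes changed 1.5-fold, 88.1% changed 2-fold and 100% changed 4-fold, among 21143 genes. The simulated noise was independent between genes and its spread was capped, so these shares do not give the power on the real arrays. There Rbpj, with a mean ratio of -1.01, had an adjusted limma p of 0.0873. The members and lists were chosen with earlier results of these data known. Named were every member and up to 2 genes per marker list. Per other list they were the genes at an unadjusted limma p under 0.05, or else the 4 with the largest absolute mean ratio. The remaining target genes were added so that the whole list is shown. Further marker genes are named where they were not well above background, held most of a summed signal or differed from the rest of a list. Alternatives were 9 other settings and each array alone. A gene that the naming rule takes is not reported here.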

Additional observations from a re-analysis of the deposited data

How the results depend on the processing

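No member's mean ratio changed sign under the alternatives that gave a value, and no member passed the adjusted threshold in any. In the authors' deposited table, though, Bambi stood at a fold of exactly 1, a log2 ratio of 0. The 1 gene called over all genes became 0 with median centring, with scaling between arrays, with the scanner's log ratio and with the deposited table, and 95 with trend and robust settings. With median centring, 4 members were above 0 on both arrays and 0 below, while 24.2% of all genes were above and 31.9% below, against 31.7% and 29.8% with loess. With the deposited table, 0 members were below 0 on both arrays, and the median ratio of the members was 0.19 (0.14 as reported). Leaving out one array gave members' medians between 0.13 and 0.18. With no filter on dim probes Grem1 had -0.02 (adjusted p = 0.963 in limma). With trend and robust settings Hamp, near background in the Rbpj-cKO RNA of array 1, had an adjusted p = 0.0384 in limma. The size of a dim gene's mean depended on the setting. With the scanner's log ratio, Nog had 0.15 (0.09 as reported), Gdf6 0.41 (0.22), Gdf7 -1.52 (-0.59) and Hamp -1.97 (-0.87). The causes of these shifts were not tested. No paired analysis was possible because each ratio already pairs the 2 RNAs of an array and there is 1 group of arrays. Signal over background limits Bambi, Grem1, Gdf7, Hamp and the second Bmp4 probe.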
